A study of Homo sapiens with 24 samples.

Results

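EFR3B, DHRS2, SMIM14, SERTAD1 and LPAR6 are 5 of the 15862 genes listed in an RNA-seq series on leukaemia cell lines. They were picked for strong rises in LOUCY cells under the BET inhibitors JQ1 or I-BET151, set against the solvent DMSO. All 5 were found in the table by symbol. They were thus chosen by the measured differences between inhibitor and DMSO libraries, which are given as a description, with no test. The choice had no numeric threshold. On the scale used here the 5 genes ranked 2nd to 13th of 11411 tested genes under JQ1 and 1st to 10th under I-BET151.

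LOUCY and JURKAT are established human lines grown from T-cell acute lymphoblastic leukaemia. LOUCY stands for the early T-cell precursor form in many studies, and JURKAT for a later stage of T-cell development. LOUCY cells were kept for 24 h with 250 nM JQ1 (4 libraries), 500 nM I-BET151 (4 libraries) or 0.05% DMSO (4 libraries), or were left untreated (6 libraries). Untreated JURKAT cells gave 6 more libraries. No allele, transgene or gene deletion is named for any group, and inhibitor-treated JURKAT was not analysed here. The libraries of each group came in equal numbers from 2 independent experiments. A single line stands for each form of leukaemia, and whether the numbered replicates grew as separate cultures is not stated in the labels. The spread behind every p-value is that of these libraries and may be technical in part.

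The lines carried T-cell markers. In LOUCY 6 of 8 such markers averaged 1 RPKM or more (reads scaled to gene length and library size, the unit of all levels here), and in JURKAT 8 of 8 did. CD5 and CD2, surface proteins of T cells, averaged 0.195 and 0.126 RPKM in LOUCY. Summed T-cell and myeloid markers were lower with both inhibitors than with DMSO, without overlap, while the summed B-cell markers overlapped between the groups. These sums were not tested, and the share of all genes without overlap was not taken. Over all LOUCY libraries CD3D, at a mean of 1134 RPKM, made up the largest part of the T-cell sum. LYZ, at 13.2, and CD79A, at 351.5, did so for the myeloid and B-cell sums. A lower sum thus need not mean that every marker fell. The summed T-cell markers ranged from 1142 to 1205 RPKM with JQ1 and from 998.0 to 1285 with I-BET151, against 1700 to 2075 with DMSO. The summed level of the 4 listed myeloid markers was 4.22 to 6.58 RPKM with JQ1 and 4.41 to 6.86 with I-BET151, against 17.9 to 23.9 with DMSO. Of these, MPO and LYZ averaged 1 RPKM or more in LOUCY. Summed B-cell markers, of which CD79A and CD79B reached 1 RPKM and MS4A1 and PAX5 did not, ranged from 242.5 to 335.5 RPKM with JQ1 and from 174.4 to 351.9 with I-BET151, against 322.1 to 589.3 with DMSO. Their part in the differences of the 5 genes was not tested. In bulk RNA, fewer cells of a kind and less RNA per cell cannot be told apart. Libraries held 4381134 to 7074198 reads in listed genes. 3 libraries of experiment 2 stood apart in how expression fell with the GC content of genes, and the values they touch are given with LPAR6.

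BET proteins hold acetylated lysines of histone tails in their bromodomains and bring the elongation factor P-TEFb to promoters and enhancers. JQ1 and I-BET151 are built on different chemical scaffolds and both occupy the acetyl-lysine pocket. Many growth and identity genes lose transcript under such compounds, while a smaller set, of which HEXIM1 is the best known, gains transcript. The 5 genes described here have unrelated roles. EFR3B anchors a lipid kinase complex at the plasma membrane, DHRS2 is a short-chain dehydrogenase/reductase, and SMIM14 is a small integral membrane protein. SERTAD1 is a binding partner of the cell-cycle kinase CDK4 and a co-activator of E2F factors, and LPAR6 is a cell-surface receptor for lysophosphatidic acid (LPA).

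The promoters are shown first because the 5 genes share a direction of change while the windows before their annotated starts differ in composition. Each line gives the 250 bases before the annotated start, 5′ to 3′ on the strand of the gene, from RefSeq on GRCh38.p14, where all 5 genes were matched. Capitals mark matches on either strand to the TATA-box letters, the GC-box core or the CCAAT box, 3 of the 6 motifs searched, and matches may overlap.
EFR3B, chr2:25041826-25042075, plus strand: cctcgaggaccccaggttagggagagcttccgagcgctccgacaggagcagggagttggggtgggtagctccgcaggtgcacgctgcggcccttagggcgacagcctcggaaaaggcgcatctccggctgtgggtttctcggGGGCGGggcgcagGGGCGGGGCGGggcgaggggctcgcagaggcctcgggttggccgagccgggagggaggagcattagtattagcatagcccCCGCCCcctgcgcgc
DHRS2, chr14:23629865-23630114, plus strand: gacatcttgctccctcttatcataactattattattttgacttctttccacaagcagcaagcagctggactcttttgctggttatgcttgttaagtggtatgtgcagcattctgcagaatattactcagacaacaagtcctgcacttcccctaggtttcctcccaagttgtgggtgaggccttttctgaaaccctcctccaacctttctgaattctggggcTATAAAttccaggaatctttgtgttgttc
SMIM14, chr4:39638866-39639115, minus strand: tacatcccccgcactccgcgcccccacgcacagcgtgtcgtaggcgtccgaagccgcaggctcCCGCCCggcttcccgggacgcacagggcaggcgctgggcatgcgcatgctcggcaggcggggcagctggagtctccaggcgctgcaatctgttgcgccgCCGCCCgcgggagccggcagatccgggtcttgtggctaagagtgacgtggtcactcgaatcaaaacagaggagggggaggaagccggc
SERTAD1, chr19:40425993-40426242, minus strand: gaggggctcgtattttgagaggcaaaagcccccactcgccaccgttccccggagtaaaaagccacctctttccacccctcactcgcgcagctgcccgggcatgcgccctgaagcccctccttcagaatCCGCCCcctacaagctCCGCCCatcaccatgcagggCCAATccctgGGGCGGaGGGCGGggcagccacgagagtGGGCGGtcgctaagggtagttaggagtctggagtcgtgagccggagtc
LPAR6, chr13:48413114-48413363, minus strand: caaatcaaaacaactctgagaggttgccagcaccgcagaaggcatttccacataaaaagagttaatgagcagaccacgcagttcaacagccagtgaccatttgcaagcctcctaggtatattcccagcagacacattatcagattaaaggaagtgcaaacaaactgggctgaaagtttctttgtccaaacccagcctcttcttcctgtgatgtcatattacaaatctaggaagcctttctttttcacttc

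EFR3B, SMIM14 and SERTAD1 have 24, 28 and 17 CpG dinucleotides in the window, above the median of 11 over 35116 RefSeq promoters. Of all promoters 76.3%, 84.1% and 61.0% have fewer, so SERTAD1 lies nearer the middle. DHRS2 has 0 and LPAR6 has 2, fewer than most. The GC-box core GGGCGG, on either strand as CCGCCC, matched 4 times in EFR3B, where 2 of the matches overlap, 2 times in SMIM14 and 5 times in SERTAD1. It is present in 42.6% of all promoters of this length. DHRS2 has the only TATAAA among these windows, 29 bases upstream of the start, a letter run found in 10.7% of promoters. SERTAD1 has 1 CCAAT, found in 32.0%. The E-box CACGTG (6.3% of promoters) and the AP-1 and cAMP-response motifs TGACTCA (4.2% of promoters) and TGACGTCA (1.6% of promoters) matched in none of these windows. RefSeq gives EFR3B a second start further downstream, whose window is not shown. The RefSeq start of LPAR6 lies well inside the longer gene span that GENCODE gives, so its window precedes an internal start of that span, and the start used in these cells was not measured. These are letter matches in fixed windows and say nothing of which factors bind there.

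EFR3B is a palmitoylated peripheral membrane protein that recruits the phosphatidylinositol 4-kinase PI4KA to the plasma membrane. The gene lies at chr2:25042130-25159137 on the plus strand (GRCh38). In the JQ1 libraries it stood at 8.71 and 7.11 RPKM in experiment 1 and at 8.66 and 7.65 in experiment 2. The I-BET151 libraries gave 9.54 and 7.89 RPKM in experiment 1 and 6.49 and 8.73 in experiment 2. With DMSO it was at 0.824 and 0.702 RPKM in experiment 1 and at 0.680 and 1.28 in experiment 2. Every inhibitor library was thus above every DMSO library by a wide gap. The means were 8.03 ± 0.786 RPKM with JQ1 and 8.16 ± 1.30 with I-BET151, against 0.871 ± 0.278 with DMSO (SD, n = 4 each), which gives ratios of 9.22 and 9.37. Untreated LOUCY ranged from 1.15 to 1.396 RPKM with a median of 1.32 (n = 6), overlapping the DMSO libraries only in part. Untreated JURKAT ranged from 0.259 to 0.650 RPKM and lay below every LOUCY library. The gene is long, with an implied counted length of 7458 bases, so even low RPKM rested on whole reads. It had 265 to 346 reads per library with JQ1 and 281 to 389 with I-BET151, against 27 to 51 with DMSO.

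DHRS2 (also called Hep27) is a mitochondrial and nuclear NADPH-dependent reductase of dicarbonyl compounds. It lies at chr14:23630115-23645639 on the plus strand. The JQ1 libraries gave 6.23 and 6.49 RPKM in experiment 1 and 4.65 and 4.09 in experiment 2. The I-BET151 libraries gave 3.90 and 4.17 RPKM in experiment 1 and 2.96 and 3.05 in experiment 2. The DMSO libraries gave 0.364 and 0.230 RPKM in experiment 1 and 0.442 and 0.332 in experiment 2. Within each inhibitor group both libraries of experiment 1 were above both of experiment 2, and all 8 were far above DMSO. The means were 5.36 ± 1.18 RPKM with JQ1 and 3.52 ± 0.607 with I-BET151, against 0.342 ± 0.0879 with DMSO (SD, n = 4 each). DHRS2 had the highest JQ1-to-DMSO ratio of means among the 5 genes, 15.7, and also the fewest reads. The 4 JQ1 libraries held 185 reads and the 4 DMSO libraries 13, a depth-scaled ratio of 15.45 with an exact 95% interval of 8.82 to 29.6. For I-BET151 126 reads stood against 13 with DMSO, a ratio of 10.1 (5.69 to 19.5). These intervals pool the reads of each group and cover counting error only. DHRS2 was chosen for this rise, so they are a description and no test. Untreated LOUCY (0.0963 to 0.499 RPKM, 1 to 5 reads) and untreated JURKAT (0.213 to 0.908 RPKM, 2 to 9 reads) overlapped each other and the DMSO libraries, and all 16 libraries without inhibitor were below 1 RPKM.

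SMIM14 encodes a small membrane-spanning protein of poorly known function. The gene occupies chr4:39546330-39639090 on the minus strand. It stood at 17.95 and 20.96 RPKM in experiment 1 and at 21.2 and 21.3 in experiment 2 with JQ1. With I-BET151 the values were 15.6 and 17.2 RPKM in experiment 1 and 27.8 and 20.0 in experiment 2. The DMSO libraries gave 3.83 and 2.69 RPKM in experiment 1 and 5.31 and 3.94 in experiment 2. Neither inhibitor group overlapped DMSO, and the I-BET151 libraries were the more scattered. Means were 20.3 ± 1.60 RPKM with JQ1 and 20.15 ± 5.44 with I-BET151, against 3.94 ± 1.07 with DMSO (SD, n = 4 each), ratios of 5.16 and 5.11. SMIM14 differs from the other 4 genes in JURKAT. There it ranged from 9.62 to 21.9 RPKM without any inhibitor, with a median of 13.7, and so overlapped the inhibitor-treated LOUCY libraries. Untreated LOUCY was at 2.12 to 6.94 RPKM, with a median of 4.72, and overlapped DMSO. Reads per library were 153 to 188 with JQ1 and 141 to 268 with I-BET151, against 23 to 59 with DMSO.

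SERTAD1 (also known as TRIP-Br1 or p34SEI-1) binds CDK4 and can keep it active in the presence of the inhibitor p16. It lies at chr19:40421592-40426025 on the minus strand. The JQ1 libraries held 40.8 and 35.1 RPKM in experiment 1 and 34.4 and 35.7 in experiment 2. The I-BET151 libraries held 25.7 and 27.3 RPKM in experiment 1 and 25.9 and 38.0 in experiment 2. DMSO libraries held 12.2 and 7.08 RPKM in experiment 1 and 6.56 and 7.28 in experiment 2. All 4 values with DMSO were below all 8 with an inhibitor, and the highest, 12.2, stood apart from the other 3. Means were 36.5 ± 2.94 RPKM with JQ1 and 29.2 ± 5.89 with I-BET151, against 8.29 ± 2.65 with DMSO (SD, n = 4 each), ratios of 4.40 and 3.52. Untreated LOUCY (4.58 to 10.3 RPKM, median 7.10) and untreated JURKAT (5.51 to 7.85 RPKM, median 6.33) overlapped each other and the DMSO libraries, so the 3 groups without an inhibitor could not be told apart by range. Reads per library were 200 to 253 with JQ1 and 168 to 222 with I-BET151, against 44 to 72 with DMSO.

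LPAR6 (also called P2Y5) is a G protein-coupled receptor that signals through G12/13 to the small GTPase RhoA, and its loss causes inherited sparse hair in humans. The gene lies at chr13:48389567-48444704 on the minus strand, inside the tumour suppressor gene RB1, which runs on the plus strand. It was the most abundant of the 5 genes in LOUCY. The JQ1 libraries gave 82.7 and 112.5 RPKM in experiment 1 and 89.0 and 97.8 in experiment 2. The I-BET151 libraries gave 72.8 and 93.6 RPKM in experiment 1 and 185.9 and 79.9 in experiment 2. The DMSO libraries gave 21.7 and 20.97 RPKM in experiment 1 and 45.6 and 23.3 in experiment 2. 1 library in each of the I-BET151 and DMSO groups was far above its partners, and the groups did not overlap. Means were 95.5 ± 12.9 RPKM with JQ1 and 108.1 ± 52.6 with I-BET151, against 27.9 ± 11.8 with DMSO (SD, n = 4 each), ratios of 3.42 and 3.87. Untreated LOUCY ranged from 21.3 to 44.6 RPKM with a median of 24.1. Untreated JURKAT was at 1.87 to 3.67 RPKM, with a median of 2.56, far below every LOUCY library. LPAR6 rested on the most reads, 1470 to 2026 with JQ1 and 1342 to 3733 with I-BET151, against 367 to 1056 with DMSO and 32 to 63 in JURKAT.

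**Figure D1:**
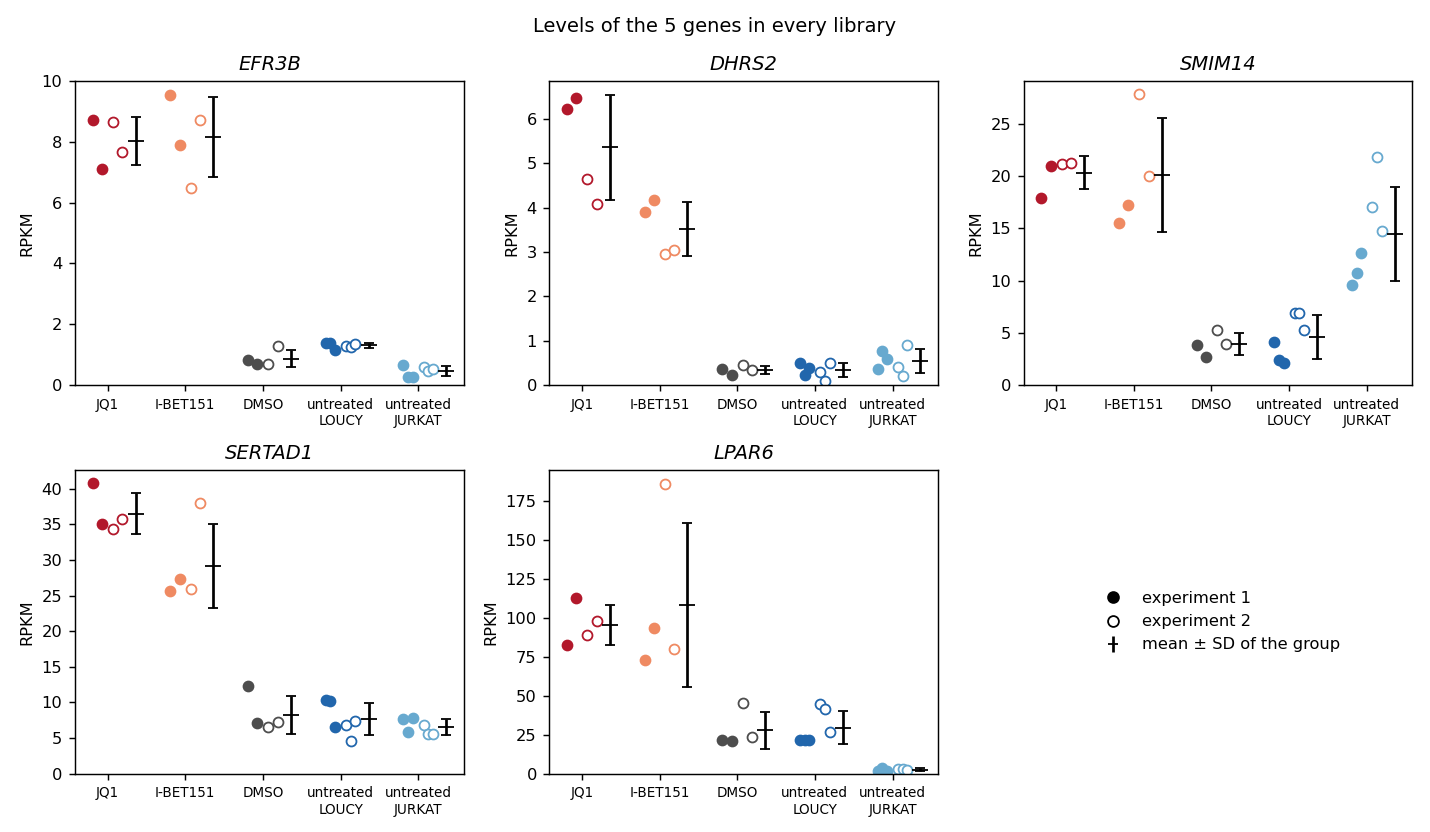
RPKM of each of the 5 genes on the vertical axis (linear, from 0) for every library of the 5 groups, filled points for experiment 1 and open points for experiment 2, with bars giving the mean ± SD of a group. In LOUCY both inhibitor groups lie above DMSO and untreated cells for all 5 genes, while untreated JURKAT (9.62 to 21.9 RPKM) is high for SMIM14 alone and low for LPAR6 (1.87 to 3.67 RPKM).

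Differences were also taken as log2(RPKM + 1) in a linear model of the 18 LOUCY libraries with the experiment as a term. On this scale the changes of genes below about 1 RPKM, here EFR3B and DHRS2 with DMSO, are understated. Under JQ1 the log2 differences from DMSO were 2.28 (SE 0.13) for EFR3B, 2.23 (0.13) for DHRS2, 2.13 (0.19) for SMIM14, 2.05 (0.20) for SERTAD1 and 1.81 (0.25) for LPAR6. Under I-BET151 they were 2.29, 1.75, 2.09, 1.72 and 1.89 in the same gene order, with the same errors, since the 2 comparisons share the spread and the DMSO libraries. The doses of JQ1 (250 nM) and I-BET151 (500 nM) differ, so these values stand side by side and are not compared. Over all genes tested, limma called 26.0% under JQ1 (10.1% higher and 15.9% lower) and 26.3% under I-BET151 (10.3% higher and 15.9% lower). Those percentages count limma calls. The share of all genes whose groups did not overlap was not taken, so the 5 of 5 genes without overlap have no background of like measure. Nothing is read from that count, because the same libraries chose the genes.

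Taken within each experiment, all differences stayed above 1.4 on the log2 scale. DHRS2 had a smaller difference in experiment 2 with both inhibitors. With JQ1 it was 2.51 (SE 0.16) above DMSO in experiment 1 and 1.95 (0.21) in experiment 2, and with I-BET151 1.96 (0.16) and 1.53 (0.21). SERTAD1 ran the other way, at 1.91 (0.24) in experiment 1 and 2.19 (0.26) in experiment 2 with JQ1, and at 1.41 (0.24) and 2.03 (0.26) with I-BET151. EFR3B was at 2.33 in experiment 1 and 2.22 in experiment 2 with JQ1, and at 2.46 and 2.13 with I-BET151. SMIM14 was at 2.27 and 1.99 with JQ1 and at 2.04 and 2.14 with I-BET151, in the same order of experiments. LPAR6 had a standard error of 0.15 in experiment 1 and 0.42 in experiment 2, where it was the least precise of the 5 genes. With JQ1 it was at 2.12 in experiment 1 and 1.49 in experiment 2, and with I-BET151 at 1.90 and 1.87. These differences between experiments were not tested.

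**Figure D2:**
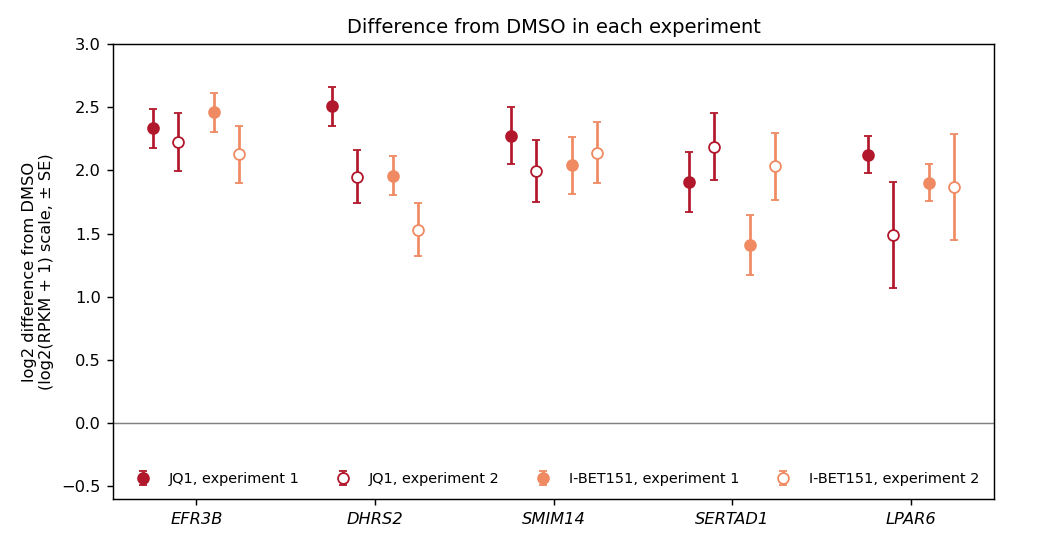
Log2 difference from DMSO of the 5 genes, on the log2(RPKM + 1) scale with standard errors, for JQ1 and I-BET151 in experiment 1 (filled) and experiment 2 (open). All 20 points lie well above 0, the lowest being SERTAD1 with I-BET151 in experiment 1 at 1.41 and the widest error being that of LPAR6 in experiment 2.

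The solvent itself went with little difference in these genes apart from EFR3B. DMSO libraries minus untreated LOUCY libraries gave log2 differences of -0.31 (SE 0.12) for EFR3B, 0.02 (0.12) for DHRS2, -0.12 (0.17) for SMIM14, 0.11 (0.18) for SERTAD1 and -0.09 (0.23) for LPAR6. The 2 groups overlapped for all 5 genes. Set against untreated LOUCY, the ratio of means ran from 3.24 for LPAR6 to 16.2 for DHRS2 with JQ1 and from 3.66 for LPAR6 to 10.6 for DHRS2 with I-BET151, again without overlap for any of the 5 genes. For EFR3B these ratios were 6.17 with JQ1 and 6.27 with I-BET151, lower than those against DMSO. Among these genes only EFR3B differed by over 2 standard errors between DMSO and untreated LOUCY, at 0.871 and 1.30 ± 0.0940 RPKM. The ratio of these means was 0.669. Choosing genes for a low level with DMSO bears on that value too, so it carries no test.

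The comparison of the untreated lines did not take part in the choice of genes and can be tested. LPAR6 was 11.2-fold higher in untreated LOUCY, at 29.5 ± 10.7 RPKM against 2.64 ± 0.759 in JURKAT (SD, n = 6 each), a log2 difference of 3.03 (SE 0.16, limma adjusted p = 1.63e-10). EFR3B was also higher in LOUCY, at 1.30 ± 0.0940 RPKM against 0.459 ± 0.164 in JURKAT (log2 0.66, SE 0.09, limma adjusted p = 7.39e-06). It reached 1 RPKM in LOUCY libraries alone, so it passed the filter only through the line where it is high. With no filter on any gene the difference was the same and the limma adjusted p 4.13e-06. SMIM14 went the other way, at 4.63 ± 2.10 RPKM in LOUCY and 14.5 ± 4.52 in JURKAT (log2 -1.50, SE 0.14, limma adjusted p = 1.01e-07). SERTAD1 did not pass the test, at 7.64 ± 2.23 RPKM in LOUCY and 6.54 ± 1.07 in JURKAT (log2 0.17, SE 0.13, limma adjusted p = 0.274). DHRS2 was too low for the filter of 1 RPKM in at least 4 libraries. With no filter it was 0.332 ± 0.159 RPKM in LOUCY and 0.541 ± 0.264 in JURKAT, and did not pass (log2 -0.20, SE 0.11, limma adjusted p = 0.129). No count over the 5 genes is drawn from this, since the filter let EFR3B in through 1 line. Over all genes limma called 73.1% of 11978 in this comparison (35.5% higher and 37.5% lower in LOUCY).

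The same calls held in each experiment. LPAR6 was higher in LOUCY by 3.32 on the log2 scale in experiment 2 and by 2.73 in experiment 1, and SMIM14 was lower, with log2 differences of -1.35 in experiment 2 and -1.65 in experiment 1. For SERTAD1 the differences were 0.05 in experiment 2 and 0.28 in experiment 1 and did not pass in either. EFR3B had to be taken with no filter, and was higher in LOUCY by 0.59 in experiment 2 (limma adjusted p = 0.00136) and by 0.74 in experiment 1 (0.00119). The 2 lines therefore differ in the starting level of these genes in no common direction. LPAR6 and EFR3B were higher in LOUCY, SMIM14 was higher in JURKAT, and SERTAD1 and DHRS2 did not pass.

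Untreated cells also allow a test between the experiments. SMIM14 was higher in experiment 2 in untreated LOUCY, at 6.94, 6.86 and 5.29 RPKM against 4.16, 2.42 and 2.12 in experiment 1 (log2 0.94, SE 0.19, limma adjusted p = 0.0248). Across all genes 4.07% were called in this comparison (1.73% higher and 2.34% lower in experiment 2). The call is fragile. Leaving out any of replicates 2 and 3 of experiment 1 or replicates 1 and 2 of experiment 2 raised the adjusted p to between 0.0780 and 0.113. In untreated JURKAT the difference was 0.65 (SE 0.19, limma adjusted p = 0.147), with 17.1, 21.9 and 14.8 RPKM in experiment 2 against 9.62, 10.8 and 12.6 in experiment 1. In the JURKAT comparison limma called 0.184% of genes (0.150% higher and 0.0334% lower in experiment 2). SMIM14 levels did not overlap between the 2 experiments in either line. The share of all genes without such overlap was not taken, so nothing is read from that.

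LPAR6 was likewise at 44.6, 41.3 and 26.6 RPKM in experiment 2 and at 21.6, 21.3 and 21.6 in experiment 1 in untreated LOUCY, and missed the threshold (log2 0.74, SE 0.21, limma adjusted p = 0.0587). It passed in a voom fit on recovered reads (adjusted p = 0.0145) and without replicate 3 of experiment 2 (limma adjusted p = 0.00539). That refit without replicate 3 called 3666 of 11893 genes. Leaving out any other untreated LOUCY library gave LPAR6 a limma adjusted p of 0.112 to 0.2255. SERTAD1 was lower in experiment 2 by inspection, at 6.78, 4.58 and 7.42 RPKM against 10.3, 10.2 and 6.57 in experiment 1, and did not pass (log2 -0.46, SE 0.19, limma adjusted p = 0.126). Without replicate 3 of experiment 2 its limma adjusted p was 0.0446, and without replicate 2 of that experiment it was 0.439. EFR3B was the steadiest of the 4, with a log2 difference of -0.005 (SE 0.13, limma adjusted p = 0.984). DHRS2, taken with no filter, was at -0.09 (limma adjusted p = 0.787). In untreated JURKAT the adjusted p was 0.581 for EFR3B, 0.549 for SERTAD1 and 0.742 for LPAR6. The experiment difference itself did not differ between the lines for any of these 4 genes at the threshold (limma adjusted p = 0.640 to 0.860, with 0.0250% of all genes called).

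LPAR6 needed a closer look for 2 reasons. The first is its overlap with RB1. The kit does not mark strand, so reads of the genes cannot be told apart by strand where they overlap. By GENCODE all 4348 exon bases of LPAR6 lie within the RB1 span (chr13:48303726-48599436) and 0 of them in RB1 exons. RB1 did not pass the test under either inhibitor. It stood at 47.6 ± 4.199 RPKM with JQ1 and 59.6 ± 31.1 with I-BET151, against 44.7 ± 8.24 with DMSO (SD, n = 4 each). The log2 differences were 0.10 (SE 0.21, limma adjusted p = 0.774) and 0.31 (SE 0.21, limma adjusted p = 0.312). The LPAR6-to-RB1 ratio, taken within each library, was 1.91 to 2.14 with JQ1 and 1.69 to 1.98 with I-BET151, against 0.511 to 0.803 with DMSO. It was 0.478 to 0.777 in untreated LOUCY and 0.0288 to 0.0518 in untreated JURKAT, where RB1 was at 62.9 ± 10.3 RPKM. The ratio did not overlap between inhibitor-treated and other LOUCY libraries, but LPAR6 was chosen for its rise, so this is a description. The ratio was least in untreated JURKAT, where its numerator LPAR6 was also lowest, at 1.87 to 3.67 RPKM. The implied counted length of LPAR6 was 3458 bases, which differs from the 4348 exon bases of GENCODE. Whether RB1 reads from outside its exons entered the LPAR6 values was not tested.

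The second reason is GC content. In 3 libraries of experiment 2, expression relative to the group went down with the GC content of genes. The slopes, as log2 change for each 10 points of GC content, were -0.331 in I-BET151 replicate 1, -0.299 in DMSO replicate 1 and -0.242 in untreated LOUCY replicate 2. The other 21 libraries lay between -0.132 and 0.163. LPAR6 has a GC content of 39.0% in its longest transcript, lower than in all but 13.3% of tested genes, and RB1 is at 37.3%. The libraries concerned were the highest of their groups for LPAR6 among I-BET151 (185.9 RPKM) and DMSO (45.6 RPKM) and the second highest in untreated LOUCY (41.3 RPKM). I-BET151 replicate 1 of experiment 2 was also the highest RB1 library of all 24, at 106.2 RPKM. Without the 3 libraries the LPAR6 differences from DMSO were 2.02 with JQ1 and 1.85 with I-BET151, against 1.81 and 1.89 with them. SMIM14, at 40% GC, had its highest I-BET151 and DMSO values in the same libraries (27.8 and 5.31 RPKM). EFR3B (54.1%), SERTAD1 (53.9%) and DHRS2 (50.3%) are above the median GC of 47.6%.

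**Figure D3:**
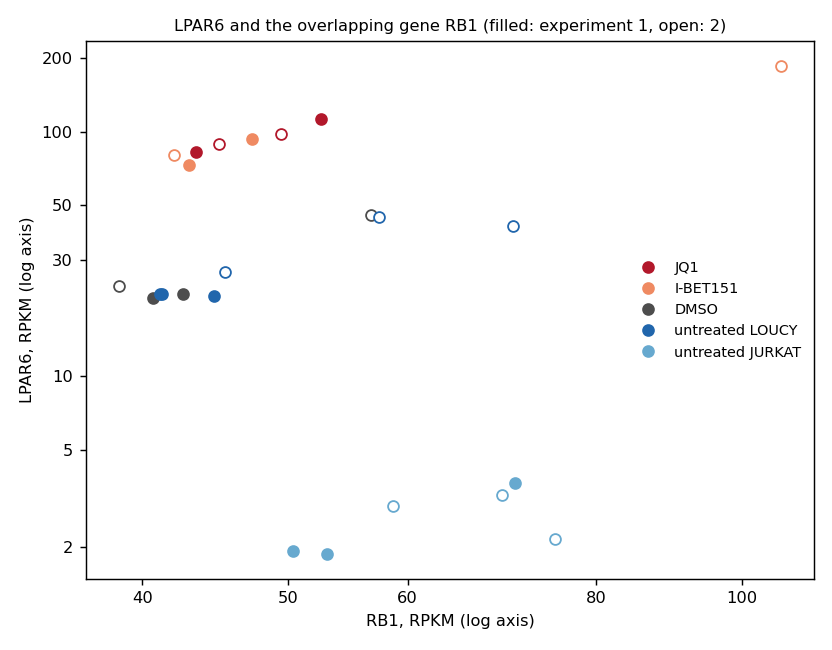
LPAR6 against RB1, both in RPKM on log axes, with 1 point per library coloured by group, filled for experiment 1 and open for experiment 2. Inhibitor-treated LOUCY libraries lie above the DMSO and untreated LOUCY libraries at like RB1 levels, untreated JURKAT lies at 1.87 to 3.67 RPKM of LPAR6, and I-BET151 replicate 1 of experiment 2 is far to the right at 106.2 RPKM of RB1.

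The nearest tested genes on either side of each of the 5 did not share a direction. These genes were not part of the choice and were tested. Next to SERTAD1, PLD3, a lysosomal exonuclease of the phospholipase D family, was higher by 1.11 with JQ1 (SE 0.16, limma adjusted p = 3.70e-05) and by 0.95 with I-BET151 (0.000192), at 22.1 ± 0.749 RPKM with JQ1 and 20.1 ± 4.48 with I-BET151 against 9.82 ± 1.75 with DMSO. On the other side its paralogue SERTAD3, 14819 bases away, was at 7.59 ± 2.07 RPKM with JQ1 and 7.64 ± 0.858 with I-BET151, against 5.59 ± 1.12 with DMSO, and did not pass (limma adjusted p = 0.189 and 0.144). Next to DHRS2, the adaptor subunit gene AP1G2 was higher by 0.81 with JQ1 (limma adjusted p = 0.000264) and 0.64 with I-BET151 (0.00233), while DHRS4-AS1 did not pass (0.452 and 0.341).

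Neighbours of EFR3B and SMIM14 went down or did not pass. DNMT3A, the de novo DNA methyltransferase 68718 bases from EFR3B, fell to 13.6 ± 1.56 RPKM with JQ1 and 13.3 ± 2.04 with I-BET151, against 23.5 ± 3.16 with DMSO (log2 -0.74 and -0.78, limma adjusted p = 0.000674 and 0.000416). DNAJC27, on the other side, did not pass (limma adjusted p = 0.860 and 0.536). UGDH, which makes UDP-glucuronate and lies 18019 bases from SMIM14, fell by 0.45 with JQ1 and 0.43 with I-BET151 on the log2 scale (limma adjusted p = 0.000834 and 0.00128), and UBE2K did not pass (0.375 and 0.598). UGDH-AS1 overlaps SMIM14 on the other strand, at 0.509 RPKM with JQ1 and 0.297 with I-BET151, against 0.269 with DMSO, and was too low to test. Beside LPAR6, ITM2B, which lies beyond RB1, was higher by 0.54 and 0.59 (limma adjusted p = 0.0260 and 0.0160), and RCBTB2 did not pass (0.744 and 0.537). The ITM2B calls were lost in 4 of the 8 refits without 1 library under JQ1 (either JQ1 library of experiment 1 or either DMSO library of experiment 2). Under I-BET151 the call was lost without DMSO replicate 2 or I-BET151 replicate 1 of experiment 2, without the 3 libraries of steep GC slope, and in each experiment alone.

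Relatives and partners of each gene were taken as lists, and their counts are read against the share of all tested genes called, 10.1% higher and 15.9% lower with JQ1 and 10.3% higher and 15.9% lower with I-BET151. Of the plasma-membrane kinase complex and its regulators that EFR3B belongs to, 2 of 8 tested genes were higher and 1 lower with JQ1, and 3 were higher with I-BET151 while the other 5 did not pass. The medians were 0.30 and 0.26, against -0.01 and 0.00 over all tested genes. FAM126A, a scaffold subunit of the complex, rose by 0.98 with JQ1 (SE 0.15, limma adjusted p = 8.99e-05) and by 1.01 with I-BET151 (SE 0.15, 7.02e-05), at 28.6 ± 3.25 RPKM with JQ1 and 30.05 ± 9.21 with I-BET151 against 14 ± 0.962 with DMSO. The kinase PI4KA itself rose by 0.50 and 0.48 (limma adjusted p = 0.00619 and 0.00757). EFR3A, the paralogue of EFR3B, was at 7.79 ± 0.497 RPKM with JQ1 and 10.3 ± 2.70 with I-BET151, against 6.08 ± 1.48 with DMSO. It passed under I-BET151 (log2 0.67, limma adjusted p = 0.00820) and not under JQ1 (log2 0.33, 0.182), a difference that was not itself tested. TTC7B, another scaffold subunit, fell by 0.70 with JQ1 (limma adjusted p = 0.00622) and did not pass with I-BET151 (0.336). Its JQ1 call was lost in experiment 1 alone and in experiment 2 alone (limma adjusted p up to 0.139).

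Of 9 other short-chain dehydrogenases tested, 1 was higher and 2 were lower with each inhibitor, near the shares over all genes (10.1% and 15.9% with JQ1, 10.3% and 15.9% with I-BET151), with medians of -0.24 and -0.13. DHRS3, which reduces retinaldehyde, fell by 0.72 with JQ1 and 0.98 with I-BET151 (limma adjusted p = 0.00700 and 0.000601), and DHRS7 fell by 0.52 and 0.47 (0.000664 and 0.00155). DHRS7B was the member that rose, by 0.43 and 0.47 (limma adjusted p = 0.0127 and 0.00710). Its JQ1 call was lost without DMSO replicate 2 or JQ1 replicate 1 of experiment 1.

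The SMIM genes share a naming class and not descent. Of 12 tested, 2 were higher and 3 lower with JQ1, and 1 was higher and 2 lower with I-BET151, with medians of -0.03 and 0.04. Over all genes 26.0% were called with JQ1 and 26.3% with I-BET151. SMIM24 fell to 317.8 ± 19.4 RPKM with JQ1 and 306.4 ± 62.3 with I-BET151, against 519.2 ± 56.7 with DMSO (log2 -0.70 and -0.78, limma adjusted p = 0.000419 and 0.000166). SMIM20, a mitochondrial complex assembly factor, fell by 0.71 and 0.42 (limma adjusted p = 0.000251 and 0.0140), and SMIM19 fell by 0.55 with JQ1 (0.00912). The I-BET151 call of SMIM20 and the JQ1 call of SMIM19 were lost in each experiment alone (limma adjusted p up to 0.175 and 0.157). SMIM18 rose by 0.83 with JQ1 (limma adjusted p = 0.00415) and by 0.70 with I-BET151 (0.0130). Its I-BET151 call was lost without DMSO replicate 1 of experiment 1, in the voom fit and in experiment 2 alone. SMIM18 averaged 0.634 RPKM with DMSO, against 1.87 with JQ1 and 1.60 with I-BET151. It passed the filter mainly through groups where it is higher, so its p-values are no independent support.

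Among SERTAD genes, CDK4, its cyclins and inhibitors, and the E2F and DP factors, 2 of 13 tested genes were higher and 2 lower with JQ1, and 1 was higher and 3 lower with I-BET151, near the 26.0% and 26.3% of all genes called. The medians were 0.09 and 0.06. CDKN1A, the CDK inhibitor p21, was the member with the largest change. It stood at 25.4 ± 3.96 RPKM with JQ1 and 23.3 ± 4.52 with I-BET151, against 5.47 ± 1.32 with DMSO (log2 2.04 and 1.91, SE 0.32, limma adjusted p = 0.000118 and 0.000236). CCND2, the cyclin D partner of CDK4, fell by 0.73 and 0.84 (limma adjusted p = 0.000210 and 5.71e-05), and E2F3 fell by 0.54 and 0.60 (0.000266 and 9.50e-05). E2F2 rose by 0.41 with JQ1 (limma adjusted p = 0.0201), a call lost on leaving out either JQ1 library of experiment 2, the second DMSO library of experiment 1 or the first of experiment 2. CCND3 fell by 0.49 with I-BET151 (limma adjusted p = 0.0190), a call lost on leaving out either DMSO library of experiment 1, the second DMSO library of experiment 2 or the first I-BET151 library of experiment 2, and also under quantile normalization, in the voom fit and in experiment 2 alone. CDK4, at 101.7 ± 6.66 RPKM with JQ1 and 93.5 ± 19.2 with I-BET151 against 116.0 ± 16.4 with DMSO, did not pass (limma adjusted p = 0.352 and 0.0783).

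In LPA signalling, 1 of 10 tested genes was higher and 2 were lower with each inhibitor, near the shares over all genes (10.1% and 15.9% with JQ1, 10.3% and 15.9% with I-BET151), with medians of -0.07 and 0.10. LPAR5, another LPA receptor, fell to 9.63 ± 0.877 RPKM with JQ1 and 10.2 ± 1.20 with I-BET151, against 16.7 ± 0.690 with DMSO (log2 -0.74 and -0.66, limma adjusted p = 0.000510 and 0.00139). P2RY10, a lysophospholipid receptor, fell by 0.83 and 0.87 (limma adjusted p = 0.00869 and 0.00636). Both calls were lost in experiment 1 alone and in experiment 2 alone, with adjusted p up to 0.135 with JQ1 and 0.0990 with I-BET151. P2RY10 averaged 0.683 RPKM with JQ1 and 0.643 with I-BET151, against 1.93 with DMSO. It passed the filter through the groups where it is high, so its p-values are no independent support. LPAR2 was at 3.103 ± 0.464 RPKM with JQ1 and 3.30 ± 0.879 with I-BET151, against 2.09 ± 0.882 with DMSO, and did not pass (limma adjusted p = 0.120 and 0.0796). So LPAR6 and LPAR5 differed from DMSO in opposite directions. RHOA, the GTPase downstream of these receptors, did not pass (limma adjusted p = 0.430 and 0.321). The remaining calls, ARHGEF1 higher by 0.47 with JQ1 (limma adjusted p = 0.0316) and the LPA phosphatase PPAP2A higher by 0.62 with I-BET151 (0.0288), were each lost in 5 of the 8 refits without 1 library. For ARHGEF1 these were either JQ1 library of experiment 2, the first JQ1 and second DMSO library of experiment 1 and the first DMSO library of experiment 2. For PPAP2A they were all DMSO and I-BET151 libraries of experiment 2 and the first DMSO library of experiment 1.

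**Figure D4:**
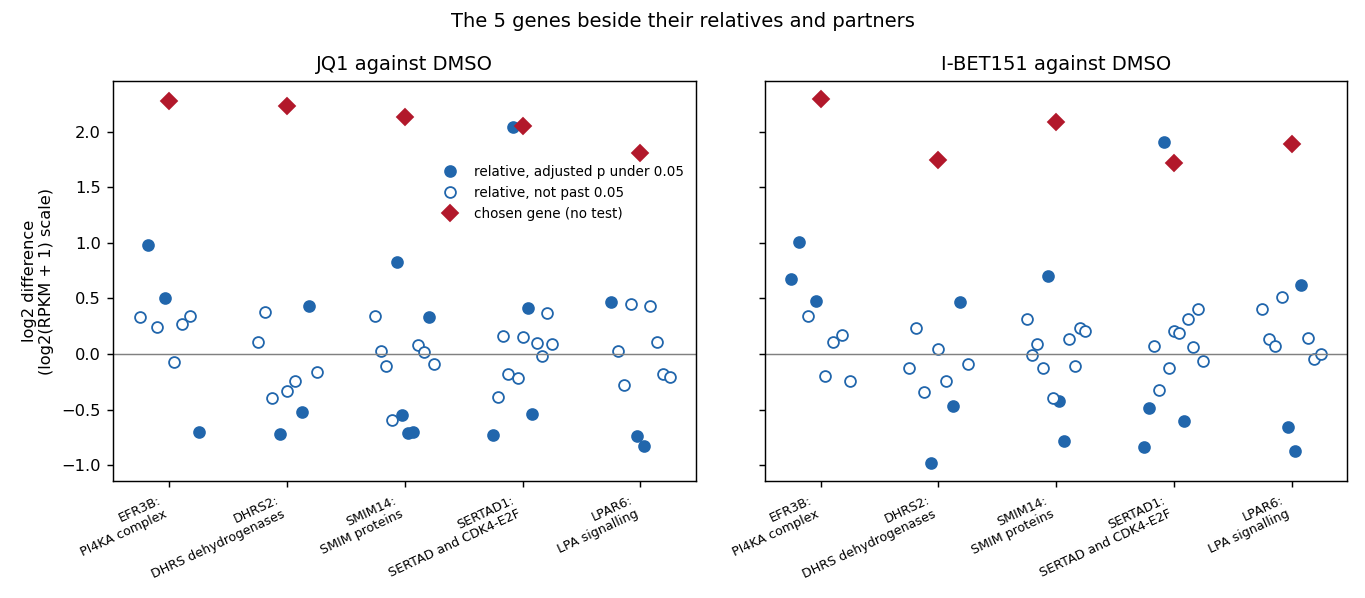
Log2 differences from DMSO, on the log2(RPKM + 1) scale, of the 5 genes (diamonds, no test) and of the tested members of each gene's list of relatives and partners (circles, filled where the limma adjusted p is under 0.05), for JQ1 and for I-BET151. Most listed relatives lie between -1 and 1, and CDKN1A at 2.04 and 1.91 is the circle beside SERTAD1.

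Genes known from other cells to respond to BET inhibitors were also listed. This list was drawn up with earlier results of these data known, so it is no independent check on the treatment. Of 13 tested, 9 were higher and 3 lower with JQ1, and 6 were higher and 3 lower with I-BET151, with medians of 0.82 and 0.35. Over all genes 10.1% were higher and 15.9% lower with JQ1, and 10.3% higher and 15.9% lower with I-BET151. HEXIM1, an inhibitor of P-TEFb, stood at 53.1 ± 2.72 RPKM with JQ1 and 50.8 ± 7.05 with I-BET151, against 19.7 ± 2.21 with DMSO (log2 1.39 and 1.32, limma adjusted p = 6.40e-08 and 1.15e-07). BCL2, which restrains apoptosis, fell to 0.605 ± 0.213 RPKM with JQ1 and 0.769 ± 0.310 with I-BET151, against 3.84 ± 0.560 with DMSO (log2 -1.59 and -1.46, limma adjusted p = 5.17e-07 and 1.67e-06). BCL2 averaged under 1 RPKM with both inhibitors and passed the filter through the libraries where it is high, so its p-values are no independent support. HIST2H2BE rose by 1.47 and 1.16 and ZCCHC24 by 1.35 and 1.42 (limma adjusted p at most 1.44e-06). HIST2H2BE shares sequence with other histone genes, so its value is uncertain. HEXIM2, listed among genes known to rise, was the exception and fell by 0.84 and 0.69 (limma adjusted p = 0.00715 and 0.0241).

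Between the untreated lines most members of these lists passed, as did 73.1% of all genes. In LPA signalling all 11 tested genes passed, 7 higher and 4 lower in LOUCY. LPAR5, like LPAR6, was higher in LOUCY (17.1 ± 3.29 RPKM in LOUCY against 4.48 ± 1.03 in JURKAT, log2 1.73, limma adjusted p = 2.86e-08), and LPAR2 was lower (2.29 ± 0.613 RPKM in LOUCY against 8.81 ± 1.34 in JURKAT, log2 -1.58, limma adjusted p = 1.32e-08). The exchange factor ARHGEF12 was lower in LOUCY (log2 -2.02). PI4KA was higher in LOUCY by 1.82 (limma adjusted p = 6.14e-10), among 4 higher and 1 lower of 8 genes in the EFR3B list. In the SERTAD1 list 6 of 14 were higher and 3 lower. CDKN2A, which encodes p16, averaged 50.5 ± 6.97 RPKM in LOUCY against 0.0172 ± 0.0422 in JURKAT, and TFDP1, the DP partner of E2F, averaged 0.259 ± 0.312 RPKM in LOUCY against 37.7 ± 2.81 RPKM for JURKAT (limma adjusted p = 4.72e-17 and 5.18e-14). CDKN2A, TFDP1 and ARHGEF12 averaged under 1 RPKM in 1 of the lines and passed the filter through the line where they are high, so they had to differ and their p-values are no independent support. In the DHRS list 4 of 10 were higher and 5 lower, with DHRS3 higher by 3.1. In the SMIM list 3 of 12 were higher and 5 lower, with SMIM24 the most different (log2 6.57) and SMIM15 lower (log2 -2.92). Of the BET response list 12 of 15 were higher and 3 lower, against 35.5% and 37.5% of all genes. In that list MYC, MYCN, ZCCHC24 and CCR2 averaged under 1 RPKM in 1 line and passed the filter through the other. In the other lists TMEM150A, P2RY10, DHRS11 and SMIM18 did so, at least in the main. The calls of these genes are no independent support, and nothing is read from the list counts.

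Over the 18 LOUCY libraries the 5 genes followed each other closely. Pearson's r of log2(RPKM + 1) ranged from 0.797 (SERTAD1 with LPAR6) to 0.968 (SMIM14 with LPAR6) over the 10 pairs. The libraries fall into inhibitor-treated and other cells, and the genes were chosen for that split, so this is a description. EFR3B and DHRS2 were at 0.961, and DHRS2 and SERTAD1 at 0.955. LPAR6 and SMIM14, the pair of lowest GC content, followed each other most closely.

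The genes most like each of the 5 in these libraries that are named here had r of 0.953 to 0.976. All were higher with the inhibitors, by 0.55 to 1.41 with JQ1. The 5 genes were chosen for that split of the libraries, so a high r with them largely fixes this direction, and it is a description. For EFR3B they were NEU1, a lysosomal sialidase (0.976), the ubiquitin-conjugating enzyme UBE2H (0.976) and NPC2, a lysosomal cholesterol carrier (0.976). For DHRS2 they were the mitotic kinase NEK9 (0.973) and FAM120B (0.972). For SMIM14 they were the homeobox factor HOXB7 (0.971), the antiproliferative TOB1 (0.960) and ZSWIM6 (0.953). HOXB7 averaged 128.7 RPKM with JQ1 and 146.9 with I-BET151, against 47.9 with DMSO. For SERTAD1 they were the epoxide hydrolase EPHX1 (0.967), NPTXR (0.967) and again NEU1 (0.964). For LPAR6 they were the Hippo pathway kinase STK3 (0.976), MOSPD1 (0.971) and the molybdopterin synthase gene MOCS2 (0.971). NEU1 is thus the gene named for both EFR3B and SERTAD1, at 5.998 RPKM with JQ1 and 5.39 with I-BET151, against 1.93 with DMSO.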

How the data were processed

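Polyadenylated RNA of 24 libraries was measured, made with Smart-seq2 and the Nextera XT kit per the labels' protocols. The authors' deposited table gives RPKM values per gene. The submitters' processing notes name edgeR 3.10.5, Subread 1.4.5-p1 with featureCounts, STAR 2.5.1b and build hg38. Settings, gene lengths and any library-size adjustment were not stated in labels or headers. Being relative values, RPKM cannot show a shift in the RNA content of whole cells.

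All 24 value columns were matched to samples by title. In 100% of 15862 genes the RPKM came out as whole reads within 0.01 reads once each library's step was known, which gave the reads per library and the implied gene lengths. Values were analysed as log2(RPKM + 1), after dropping genes that reached 1 RPKM in fewer than 4 of the libraries fitted. limma 3.58.1 (R 4.3.3) fitted the 18 LOUCY libraries, and separately the 12 untreated libraries, with an additive experiment term, moderated with a trend and tested two-sided. Experiments were contrasted in a fit of group-by-experiment means. Benjamini-Hochberg adjustment ran over all genes tested, with a threshold of 0.05. The fit was tested on simulated data. Positions are from GENCODE on GRCh38.

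The 5 genes and all lists were chosen with earlier results of these data known. Besides the 5 genes, the text names the 3 genes of highest Pearson r with each (for DHRS2 the highest is not reported here), the nearest tested gene on either side and any overlapping gene, and up to 4 members per list and comparison that passed with the smallest adjusted p. CDK4, RHOA and HEXIM2, and the inhibitor values of LPAR2, EFR3A and TTC7B that did not pass, were added after their values were seen. Alternatives were other pseudocounts, filters, normalization, experiments and left-out libraries.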

Additional observations from a re-analysis of the deposited data

Results flagged for a closer look

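Each of the 5 genes was examined in each of the 5 groups, and in 4 of these 25 gene-and-group sets 1 library stood far from the others by Dixon's criterion, which flags about 1 in 20 sets by chance. SMIM14 was lowest in JQ1 replicate 1 of experiment 1, at 17.95 RPKM, with the gap to the next library 0.898 of the range of the 4 libraries. SERTAD1 was highest in I-BET151 replicate 2 of experiment 2, at 37.95 RPKM (0.869 of the range). SERTAD1 was also highest in DMSO replicate 1 of experiment 1, at 12.24 RPKM (0.873). LPAR6 was highest in DMSO replicate 1 of experiment 2, at 45.56 RPKM (0.904), 1 of the 3 libraries with a steep GC slope. The inhibitor and DMSO groups did not overlap for these genes with those libraries included.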

How the results depend on the processing

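The 10 differences of the 5 genes from DMSO were positive in all 178 refits, a direction the choice of genes fixes. Their sizes on the log2 scale depended on the pseudocount for the low genes. For EFR3B they were 3.101 (JQ1) and 3.11 (I-BET151) with a pseudocount of 0.1, and 2.65 and 2.67 with 0.5. For DHRS2 they were 3.62 and 3.04 with 0.1, and 2.78 and 2.25 with 0.5. A limma-voom fit on recovered reads, added after seeing the data, gave 3.30 and 3.26 for EFR3B, 3.83 and 3.19 for DHRS2, and 2.43 for SMIM14 with JQ1, and called 2742 genes with JQ1, 2835 with I-BET151 and 8780 between the lines. In experiment 1 alone DHRS2 was at 2.51 and 1.96, and EFR3B and SERTAD1 with I-BET151 at 2.46 and 1.41. In experiment 2 alone these were 1.95, 1.53, 2.13 and 2.03; the cause was not tested. A filter of 5 RPKM removed DHRS2. Experiment 2 alone called 391 genes with JQ1, 456 with I-BET151 and 5321 between the lines, while experiment 1 alone, with as many libraries, called 3438, 2787 and 6206, and both together 2971, 2999 and 8752; the cause was not tested. Calls of EFR3B, SMIM14 and LPAR6 between the lines held under every alternative that kept the gene, and SERTAD1 passed under none of them. The counts called between experiments were unstable. In untreated LOUCY 487 became 323 with no filter, 23 without the 3 libraries of steep GC slope, 1165 with voom and 15 to 3666 without 1 library. In untreated JURKAT 22 became 11 with a pseudocount of 0.5, 9 with no filter and 0 to 114 without 1 library (limma, with 16 by voom and 2116 at an unadjusted p under 0.05 over all libraries). The EFR3B difference between experiments in LOUCY, near 0, reversed to 0.0126 without those 3 libraries and to 0.0017 with voom, and ranged from -0.0553 to 0.0232 without 1 library. Among genes named beside the 5, 34 of 75 calls held in every refit and 0 reversed; experiment 2 alone lost most of the others. Of those that did not pass, DNAJC27 with JQ1 reversed to -0.2156 in experiment 2 alone, and without 1 library ranged from -0.0409 to 0.2234. Likewise without 1 library, RB1 with JQ1 ranged from -0.0190 to 0.1835, RCBTB2 from -0.0280 to 0.1832 (JQ1) and from -0.0385 to 0.3837 (I-BET151), and UBE2K from -0.1986 to 0.0111 (I-BET151). Whether replicate numbers pair the libraries is not stated in the labels. Of 42 same-numbered pairs 15 correlated above 0.1 (median 0.013, range -0.581 to 0.684). The highest was DMSO with I-BET151 in experiment 2, where replicate 1 of each has a steep GC slope. Groups of 2 libraries give the same value for both numbers, so the pairs are not independent. A replicate block gave 2836 calls with JQ1, 2883 with I-BET151 and 8565 between the lines and changed no call of the 5 genes. The planned count-model fits were not run, because the deposited unit is RPKM. Depth limits DHRS2 most, with 1 to 9 reads in libraries without an inhibitor.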
